A study of Mus musculus with 24 samples.

Results

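Smooth muscle cells and myofibroblasts share a set of contractile genes, and 10 of them were followed here by name: Acta2, Actg2, Myh11, Myl9, Cnn1, Tagln, Cald1, Tpm1, Tpm2 and Vcl. They were chosen by these symbols from the deposited tables of primary and of immortalized mouse embryonic fibroblasts (MEFs), each of which holds 41710 genes, and all 10 were found in both. The study asked what the transcription factors Myc and Mlx, partners in a shared network, contribute to MEFs, and sequenced poly-A RNA from 3 libraries of each of 4 genotypes in each table. The mice that gave the MEFs were homozygous for floxed Myc, for floxed Mlx, or for both. They were also homozygous for CreER, a fusion of Cre recombinase with the estrogen receptor, expressed from the ROSA26 promoter. With it, 4-hydroxytamoxifen (4OHT) induces excision in every cell type that uses this promoter. Embryos were taken at about day 14 to 16, cells of at least 6 embryos were pooled, and the treatment was 500 nM 4OHT or its vehicle, 70% ethanol as the labels give it. WT cells had both loci intact, MycKO cells had Myc excised, MlxKO cells had Mlx excised, and DKO cells had both excised. Immortalized MEFs of the same 4 genotypes also carried SV40 T-antigen from a lentivirus, selected with blasticidin.

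Pools were made per floxed genotype, and the paper transduced each floxed line before excision, keeping cells without 4OHT as immortalized WT controls. A single WT line served as control in most cases, and the labels do not say which pool or line the WT libraries came from. Differences between pools or lines therefore cannot be told apart from genotype. According to the paper, primary MycKO and DKO cells were growth-arrested when profiled, whereas WT and MlxKO cells proliferated. It also reports that most immortalized MycKO cells were tetraploid or pseudo-tetraploid. Growth state in primary cells and ploidy in immortalized MycKO cells thus cannot be told apart from genotype either. Since the knockout cells were exposed to 4OHT and to active Cre, which the labels do not give for the WT libraries, exposure and excision cannot be told apart. The authors describe the primary libraries as biological replicates, but the labels do not say that the libraries of a group came from separate cultures or pools, so p-values measure the spread between these libraries, part of which may be technical.

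Contractile force in smooth muscle comes from actin filaments that slide past bundles of smooth muscle myosin, which is switched on when its regulatory light chain is phosphorylated. Fibroblasts that take up part of this gene set, with smooth muscle actin in stress fibres anchored at focal adhesions, are called myofibroblasts and are known from wound contraction and fibrosis. Many of these genes carry a CArG box, the sequence bound by serum response factor (SRF), which works with coactivators of the myocardin family.

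Values are CPM as deposited, a measure relative to library size that had been adjusted between libraries in a way the labels do not name. Primary libraries held between 15986856 and 20966163 reads on genes and immortalized libraries between 17541112 and 19851300, and 3 reads, used as a floor, equalled 0.149 to 0.196 CPM and 0.145 to 0.183 CPM. The floor covers counting error only. Differences are given as log2 fold changes of CPM + 1, which understate the ratio for genes near 1 CPM, with p-values from limma adjusted over all 13101 primary or 12880 immortalized genes tested, and a gene was called changed at an adjusted p under 0.05. For a single gene, an exact permutation test of 3 libraries against 3 cannot give a 2-sided p below 0.1, so overlap between the libraries of the groups is stated for the members beside the limma results. Libraries are named by the numbers in the tables, which are 1 to 3 for primary WT, 2 to 4 for immortalized WT, and 5 to 7 for MlxKO, 9 to 11 for MycKO and 13 to 15 for DKO in both. Values are listed in that order. Comparisons with WT within a table share the WT libraries, and the tables were never tested against each other.

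The excised genes were examined first. In primary cells, Myc was lower than in WT at a log2 fold change of -1.79 in MycKO and -2.08 in DKO, and Mlx at -0.76 in MlxKO and -1.02 in DKO, without overlap of libraries and with adjusted p-values from 4.24e-12 to 0.000405. Immortalized Myc measured 48.1, 39.9 and 177 CPM in WT, 72.4, 82.8 and 79.5 CPM in MlxKO, 17.2, 11.0 and 9.96 CPM in MycKO and 8.02, 5.77 and 4.25 CPM in DKO libraries. WT library 4 had the highest value of all, and MycKO and DKO libraries lay below all others. The other WT libraries lay below all MlxKO libraries, so the difference of MlxKO from WT depends on WT library 4. Myc stood at a log2 fold change from WT of -2.41 in MycKO and -3.38 in DKO, with adjusted p-values of 0.000817 and 0.000385, and 0.16 in MlxKO with 0.798. Immortalized Mlx measured 25.1, 23.5 and 20.5 CPM in WT, 17.0, 12.4 and 12.1 CPM in MlxKO, 27.8, 25.1 and 22.4 CPM in MycKO and 14.5, 18.0 and 17.7 CPM in DKO libraries. The DKO libraries lay below the WT libraries by less than the MlxKO libraries did. Their log2 fold change of -0.44 had an adjusted p of 0.0694, which missed the threshold, against -0.71 and 0.00471 in MlxKO. The paper measured excision on DNA with TaqMan assays and protein loss by immunoblotting. It reports excision in immortalized cells that rivaled that of primary cells. The floxed segments cover only some exons of Myc and Mlx, so whole-gene counts may hold reads from the exons left. These counts therefore do not measure how complete excision was.

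The label of fibroblasts was checked against marker genes. All 11 fibroblast markers passed the filter in both tables, and Col1a1 was the most abundant of them. Their summed level was 42971 to 46578 CPM in primary WT, 44095 to 48546 in MlxKO, 55555 to 57925 in MycKO and 57849.9 to 58805 in DKO libraries, and 25634 to 33779, 18556 to 22845, 18735 to 24479.9 and 26818 to 34661 CPM in the immortalized groups in the same order. Of 10 smooth muscle markers, 5 of which are members here, all passed the filter in primary cells, and 8 did in immortalized cells, where Des and Myocd did not. Myocd, the coactivator that defines the smooth muscle program, stood at 1.98, 2.06 and 1.81 CPM in primary WT and at no more than 1.01 CPM in any immortalized library. Skeletal muscle markers Myf5 and Ckm were at 0 in all primary libraries and Myod1, Myog, Myf5 and Myl1 at 0 in all immortalized libraries, and 11 of the 13 on that list stayed under 1 CPM throughout either table. The cells thus carried fibroblast markers together with the contractile genes, with Myocd at low counts.

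One library stood apart. Correlated over all genes tested on log2(CPM + 1), which describes likeness and is no test, immortalized WT library 4 had a Pearson's r of 0.950 and 0.943 with the other WT libraries, which had 0.992 with each other. WT library 3 was on average closer to the DKO libraries, at 0.974, than to its own group, at 0.968. Against the mean of the other WT libraries, library 4 was higher by a log2 difference of 1.43 for Tagln, 1.35 for Actg2, 0.90 for Tpm1, 0.88 for Cald1, 0.84 for Acta2, 0.54 for Cnn1 and 0.15 for Vcl. It differed by -0.02 for Myl9, -0.41 for Tpm2 and -0.61 for Myh11. Immortalized member values against WT, where called, are therefore given with and without this library.

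In primary cells, WT library 3 and MycKO library 10 were low together for 6 members, against the other libraries of their groups. These log2 differences were -0.43 and -0.52 for Tagln, -0.40 and -0.54 for Myl9, -0.40 and -0.53 for Tpm2, -0.21 and -0.24 for Tpm1, -0.25 and -0.23 for Cnn1, and -0.51 and -0.30 for Myh11. For Acta2, Actg2, Cald1 and Vcl they were smaller, from -0.12 to 0.10. The mean r with their own group was 0.992 and 0.990, against 0.993 to 0.994 for the other WT and MycKO libraries. With the MlxKO libraries, WT library 3 had a mean r of 0.991, against 0.987 and 0.988 for WT libraries 1 and 2. Chi-square per degree of freedom between read counts was 22.85 and 23.3 for MycKO library 10 within its group, against 3.035 otherwise. For WT library 3 it was 10.82 and 10.41, against 3.60 otherwise, and it ranged from 4.30 to 10.19 within MlxKO and DKO. A fit without WT library 3 and MycKO library 10 was added after the member values had been seen. As the libraries left out were the low ones, less spread within the groups was built into it.

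The 10 members took up a share of library CPM that differed between genotypes. In primary cells it was 1.19, 1.18 and 1.09% in WT, 1.00, 0.941 and 1.02% in MlxKO, 1.66, 1.52 and 1.69% in MycKO and 1.70, 1.75 and 1.74% in DKO libraries. MlxKO libraries lay lowest, and MycKO and DKO libraries lay above all others. Immortalized libraries gave 0.465, 0.498 and 0.755% in WT, 0.699, 0.697 and 0.699% in MlxKO, 1.56, 1.52 and 1.59% in MycKO and 1.12, 1.07 and 1.11% in DKO. There the DKO libraries lay between MlxKO and MycKO without overlap, and WT library 4 lay above the MlxKO libraries that the other WT libraries lay below. Acta2 alone held 34.1 to 40.1% of the members' CPM in primary and 24.7 to 38.1% in immortalized libraries. In bulk RNA, fewer cells that make a transcript and less of it per cell cannot be told apart, here and for all genes that follow.

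Levels of different genes were compared as CPM per kilobase of the canonical transcript. Acta2 came first in primary WT cells with 1419 ± 19.8 CPM per kilobase (SD, n = 3), followed by Tagln with 988 ± 162 and Tpm1 with 804 ± 65.4. Next were Cald1 with 378 ± 8.62, Myl9 with 226 ± 34.8, Vcl with 162 ± 6.87, Actg2 with 131 ± 2.74, Tpm2 with 116 ± 17.5 and Cnn1 with 81.7 ± 8.21. Myh11 came last with 4.69 ± 0.926 CPM per kilobase. Of these neighbours, Tagln and Tpm1, and Actg2 and Tpm2, lay within the sum of their SDs of each other. Acta2 led in every group of both tables except immortalized MlxKO, where Tpm1 stood at 701 ± 22.6 and Acta2 at 609 ± 11.9. Myh11 was last in all 8 groups and stood at 0.117 ± 0.0637 CPM per kilobase in immortalized WT cells.

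**Figure D1:**
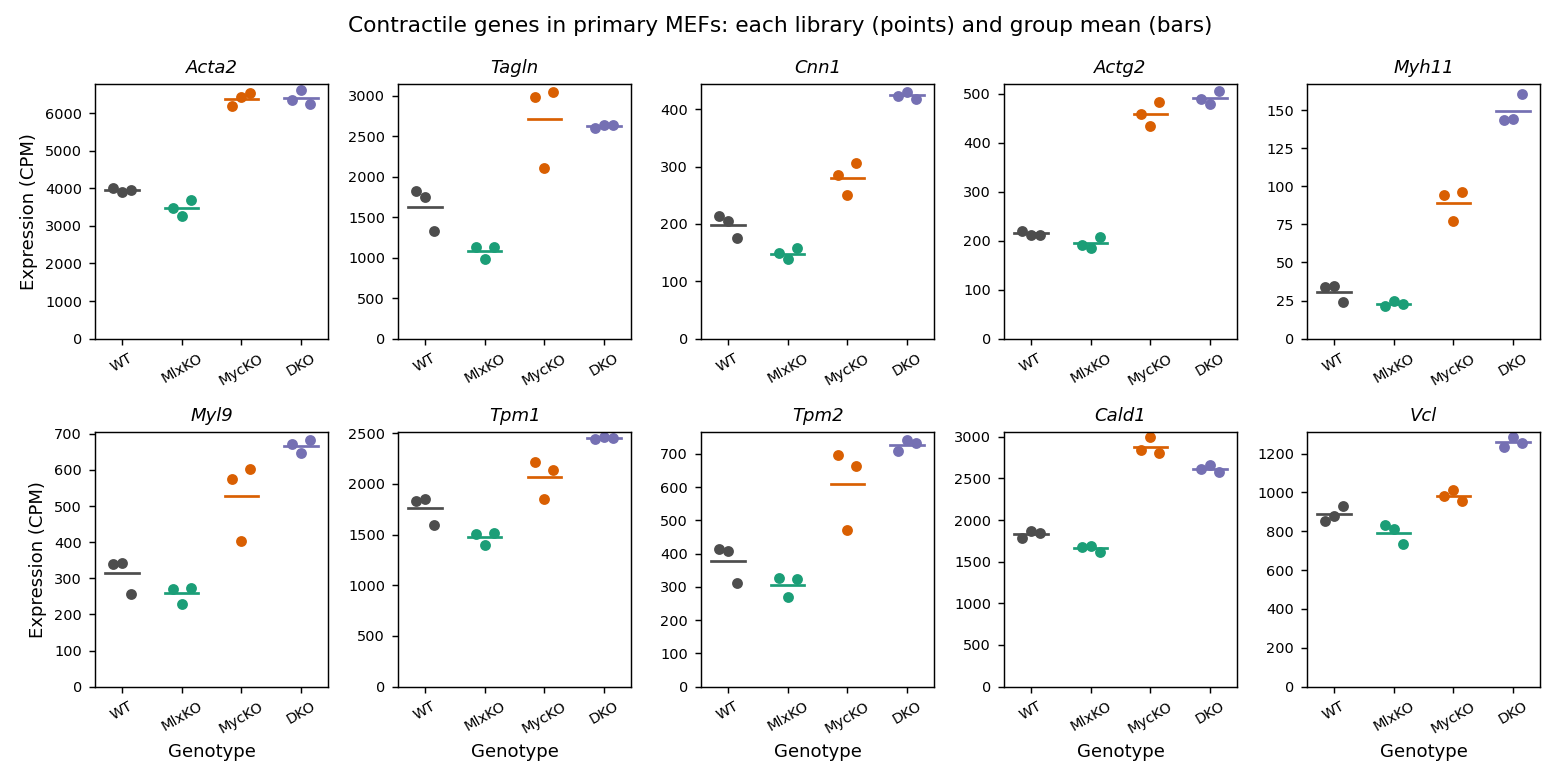
CPM of each of the 10 members in the 12 primary libraries on a linear axis from 0, with points for libraries and bars for group means. MycKO and DKO libraries lie above the WT libraries for all members except Tpm1, for which 1 MycKO library lies within the range of WT.

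Calls were counted against the background of all genes tested. The members were chosen with earlier results of these data known, so these counts describe them and do not test them as a set. In primary MycKO cells 9 of the 10 members were called higher than in WT and 0 lower, where 42.3% of all genes were called, 20.4% higher and 21.9% lower, and 9 members had MycKO libraries that did not overlap with WT, as did 48.1% of all genes. The members' median log2 fold change was 0.69, against 0.00 for all genes. Of the members, 10 were called higher in DKO cells, where 49.5% of all genes were called, 24% higher and 25.5% lower, and 10 did not overlap, as did 60.8% of all genes, with medians of 0.83 and 0.00. In primary MlxKO cells 2 members were called lower and 0 higher, where 8.88% of all genes were called, 3.75% higher and 5.14% lower, and 7 lay below WT without overlap, as 28.3% of all genes did not overlap. The medians were -0.26 and 0.00. This count rested on single libraries: it was 1 without WT library 1, WT library 2 or MlxKO library 6, and 6 without WT library 3. Without WT library 3 and MycKO library 10 it was 7, all lower, while 2838 of all genes were called in place of 1164, a number that was itself 627 without WT library 1, 630.0 without WT library 2 and 738 without MlxKO library 6.

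Against primary MycKO, 4 members were called higher in DKO and 0 lower, where 21.5% of all genes were called, 10.6% higher and 11% lower. Libraries of DKO and MycKO did not overlap for 7 members, 6 higher and 1 lower, and for 36.9% of all genes, and the medians were 0.26 and -0.01. Against MlxKO, which asks for the effect of Myc excision in cells without Mlx, all 10 were called higher in DKO and did not overlap, where 49.1% of all genes were called, 23.3% higher and 25.9% lower, and 60.9% did not overlap. Medians were 1.26 and -0.02. The interaction compares DKO minus MycKO with MlxKO minus WT, so a positive value means that Mlx excision moved the gene up more, or down less, in cells without Myc. It was called positive for 6 members and negative for 0, where 13.5% of all genes were called, 7.47% positive and 6.07% negative, with medians of 0.54 and -0.01. That number was 4 without WT library 1 or 2, MlxKO library 6, or DKO library 13 or 15, and 8 without MycKO library 11.

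Immortalized MycKO cells had 9 members called higher than WT and 0 lower, where 48% of all genes were called, 24.4% higher and 23.5% lower, and 9 did not overlap, as did 51.1% of all genes. Medians were 1.92 for the members and 0.00 for all genes. Myh11 counts among the 9, and among the members called higher in DKO against WT and against MlxKO, although of its WT and MlxKO libraries only WT library 2 reached 1 CPM, so that it passed the filter through its MycKO and DKO libraries and entered the test with a difference built in. DKO cells had 8 members called higher and 0 lower, where 18.9% of all genes were called, 10.4% higher and 8.51% lower, and 8 did not overlap, as did 37.1% of all genes, with medians of 1.20 and -0.01. In immortalized MlxKO cells 4 members were called higher and 1 lower, where 38.9% of all genes were called, 19.1% higher and 19.9% lower, and 5 did not overlap, 3 higher and 2 lower, as did 49.1% of all genes. There the medians were 0.16 and 0.01. Members called without WT library 4 numbered 10 in MycKO, 9 in DKO and 6 in MlxKO, and all genes called numbered 6951, 2840 and 6033 in place of 6176, 2434 and 5014. The MlxKO count was 3 without WT library 2 or MlxKO library 6 or 7. Of all genes, 2884 were called in MlxKO without MlxKO library 6 and 3180.0 without MlxKO library 7, and in DKO 1115 without DKO library 13, 1507 without 14 and 1401 without 15.

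Between immortalized DKO and MycKO, 6 members were called lower in DKO and 0 higher, where 29.4% of all genes were called, 14.8% higher and 14.6% lower. Libraries did not overlap for 8 members, 1 higher and 7 lower, and for 49.7% of all genes, with medians of -0.67 and -0.01. Against MlxKO, 7 members were called higher in DKO and 0 lower, where 30.1% of all genes were called, 16.3% higher and 13.9% lower, and 10 members did not overlap, as did 54.4% of all genes. Medians were 0.91 and 0.00. The interaction was called negative for 7 members, among them Myh11 with a difference built in by the filter, and positive for 0, where 47.4% of all genes were called, 23.7% positive and 23.8% negative, with medians of -1.26 and -0.01. All genes called in DKO against MlxKO numbered 3879, and 2352 without MlxKO library 6, 2401 without MlxKO library 7, 2386 without DKO library 14 and 2539 without DKO library 15. The interaction without WT library 4 was called for 7 members, at -1.06 for Acta2, -2.67 for Actg2, -2.30 for Myh11, -1.75 for Myl9, -1.72 for Cnn1, -2.58 for Tagln and -1.29 for Tpm1, and for 7299 of all genes in place of 6108. So DKO cells had 4 members called above MycKO in the primary table and 6 called below it in the immortalized table, and the difference between the tables was not tested.

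The direction of the background depended on scaling. With each library divided by its own total, the median of all genes moved to -0.12 in primary DKO against MlxKO, to 0.16 in immortalized MlxKO against WT and to -0.16 in immortalized DKO against MlxKO. The share of called genes that were higher moved from 48.3 to 31.4% in primary MycKO, from 42.2 to 53.8% in MlxKO and from 48.5 to 37.2% in DKO, each against WT, and from 47.3 to 32.4% in DKO against MlxKO. In immortalized cells it moved from 49 to 69.9% in MlxKO against WT, from 54 to 29.2% in DKO against MlxKO and from 49.9 to 37.2% for the interaction. No member with a call changed direction under this or under median-ratio scaling. Under library-total scaling the primary MycKO change of Tpm1 moved to 0.13, the primary interaction of Tpm2 to 0.56 and Actg2 to 0.70 for immortalized DKO against MlxKO, and these 3 calls were lost.

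**Figure D2:**
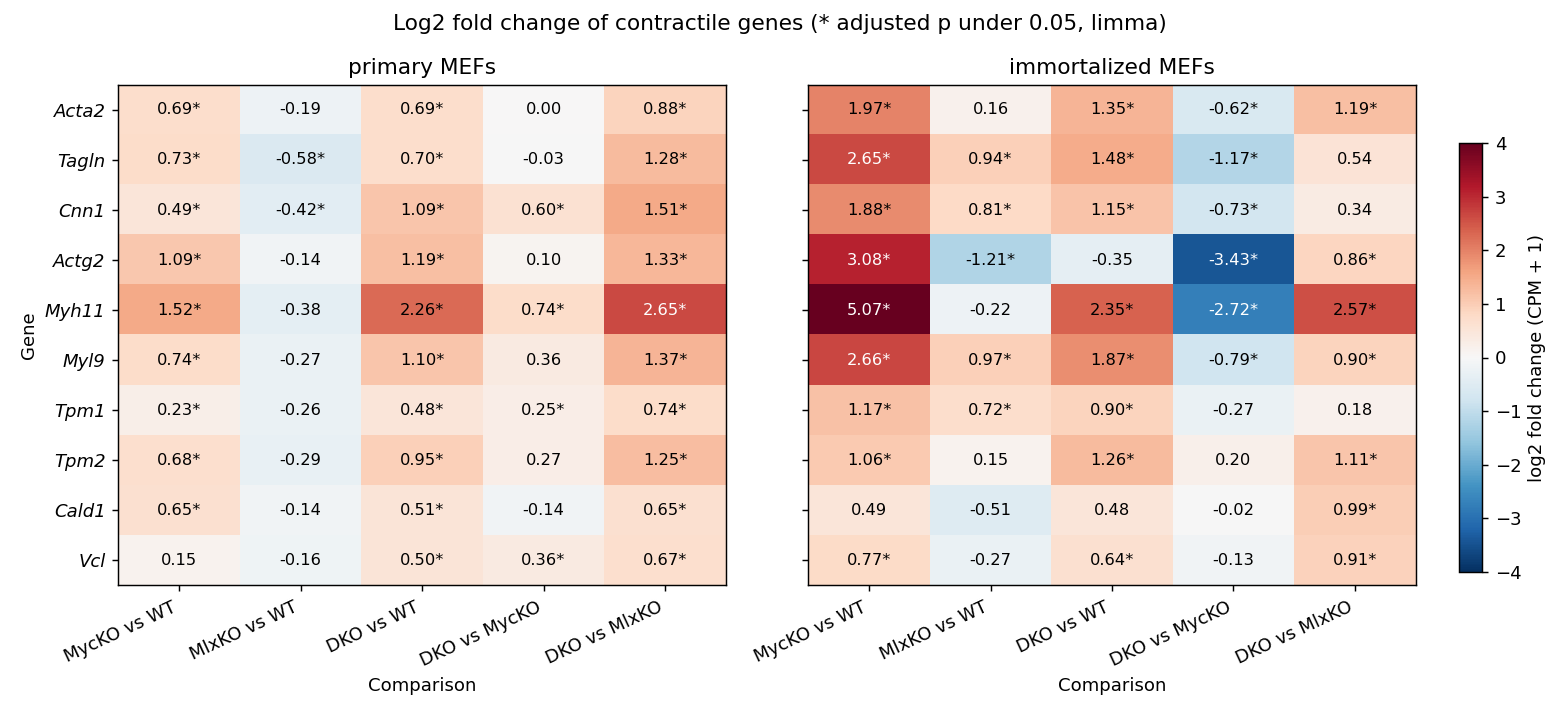
Log2 fold changes of the 10 members, in color, for the comparisons within the primary and the immortalized table, with an asterisk where the adjusted p was under 0.05. Values of DKO against MycKO are 0.74 for Myh11 and 0.60 for Cnn1 in primary cells and -2.72 and -0.73 in immortalized cells.

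Acta2 (ENSMUSG00000035783, chr19:34217737-34232990 on the minus strand of GRCm39) encodes the smooth muscle alpha-actin that marks myofibroblasts. Primary Acta2 measured 4011, 3900.5 and 3953 CPM in WT, 3475, 3268 and 3686 CPM in MlxKO, 6194, 6425 and 6525 CPM in MycKO and 6338, 6619 and 6240.2 CPM in DKO libraries. MycKO and DKO libraries overlapped with each other and lay above all WT libraries, and MlxKO libraries lay below WT without overlap. Acta2 rose by 0.69 in MycKO and by 0.69 in DKO on the log2 scale, with adjusted p-values of 7.86e-07 and 4.96e-07. The value in MlxKO, -0.19, had an adjusted p of 0.102 and was not called. DKO and MycKO differed by 0.00 with an adjusted p of 0.976, DKO exceeded MlxKO by 0.88 with 3.86e-08, and the interaction of 0.19 had 0.233. Acta2 in the difference between DKO and MycKO took the opposite sign, -0.02 and -0.02, without MycKO library 9 or DKO library 14, and stayed uncalled.

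In immortalized MEFs, Acta2 measured 1180.5, 1329 and 2237 CPM in WT, 1736, 1676 and 1682 CPM in MlxKO, 5811, 5862 and 6228 CPM in MycKO and 3769, 3809 and 4065 CPM in DKO libraries. WT library 4 lay above the MlxKO libraries and the other WT libraries below them, DKO libraries lay above both groups, and MycKO libraries lay above all. Acta2 rose by 1.97 in MycKO and 1.35 in DKO on the log2 scale, with adjusted p-values of 1.58e-05 and 0.00115, and was 0.16 in MlxKO with 0.558. Without WT library 4 these log2 fold changes were 2.25, 1.63 and 0.44, the last of which was then called, and the MlxKO value was -0.02 without WT library 2 and 0.06 without WT library 3. DKO was lower than MycKO at a log2 fold change of -0.62 with an adjusted p of 0.0394, without overlap, and higher than MlxKO by 1.19 with 0.00135. Leaving out any 1 of the MycKO or DKO libraries kept the first value between -0.65 (without DKO library 15) and -0.59 (without MycKO library 11), with -0.64 and -0.63 without MycKO library 9 or 10 and -0.60 and -0.61 without DKO library 13 or 14, but lost the call. The interaction of -0.78 with an adjusted p of 0.0437 likewise lost its call without any 1 library except WT library 4, at values from -0.81 without DKO library 15 to -0.60 without WT library 2, and was -1.06 without WT library 4.

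Actg2 (ENSMUSG00000059430, chr6:83489887-83513551 on the minus strand of GRCm39) encodes smooth muscle gamma-actin, typical of visceral muscle. Primary Actg2 measured 219.7, 212 and 212 CPM in WT, 190.3, 185 and 207 CPM in MlxKO, 458, 433 and 483 CPM in MycKO and 488, 479 and 504 CPM in DKO libraries. The order of groups was that of Acta2, with MlxKO below WT, and MycKO and DKO above WT and overlapping with each other. Its log2 fold change was 1.09 in MycKO with an adjusted p of 1.77e-09, 1.19 in DKO with 3.29e-10 and -0.14 in MlxKO with 0.146. DKO exceeded MlxKO by 1.33 with 7.15e-11, while the difference of 0.10 from MycKO had 0.272. An interaction of 0.24 missed the threshold with an adjusted p of 0.0684, and passed it without MlxKO library 7, at 0.29, or without MycKO library 11, at 0.28.

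Immortalized Actg2 measured 27.8, 34.7 and 80.7 CPM in WT, 16.5, 21.5 and 16.2 CPM in MlxKO, 394, 344 and 372 CPM in MycKO and 34.4, 30.4 and 35.2 CPM in DKO libraries. Only MycKO libraries lay high, MlxKO libraries lay below all others, and WT library 4 lay above the DKO libraries, with which the WT group overlapped. Actg2 rose 7.75-fold in mean CPM in MycKO, a log2 fold change of 3.08 with an adjusted p of 6.12e-06. It fell in MlxKO, at -1.21 with 0.00663, and was not called in DKO, at -0.35 with 0.403. Without WT library 4 Actg2 stood at 3.53 in MycKO, -0.76 in MlxKO and 0.10 in DKO, the last with the opposite sign and not called, and without WT library 2 the DKO value was -0.65, not called. DKO cells held 11.1-fold less Actg2 than MycKO cells, a log2 fold change of -3.43 with an adjusted p of 3.17e-06 and no overlap, and the interaction was -2.22 with 0.00100. DKO libraries also lay above all MlxKO libraries, by 0.86 with an adjusted p of 0.0396. That call was lost without any 1 library of the pair of groups, at 0.80, 0.98 and 0.79 without MlxKO library 5, 6 or 7 and 0.84, 0.92 and 0.82 without DKO library 13, 14 or 15.

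Myh11 (ENSMUSG00000018830, chr16:14012399-14109236 on the minus strand of GRCm39) encodes the heavy chain of smooth muscle myosin. Primary Myh11 measured 33.7, 34.7 and 23.7 CPM in WT, 21.6, 24.999 and 22.4 CPM in MlxKO, 94.3, 77.1 and 96.4 CPM in MycKO and 144, 144 and 160.4 CPM in DKO libraries. DKO libraries lay above MycKO, MycKO above WT, and WT library 3 lay within the range of MlxKO. In mean CPM, Myh11 rose 2.91-fold in MycKO and 4.87-fold in DKO against WT, log2 fold changes of 1.52 and 2.26 with adjusted p-values of 6.69e-08 and 5.99e-10. It was higher in DKO than in MycKO by 0.74 with 0.000257 and than in MlxKO by 2.65, 6.49-fold in mean CPM, with 7.77e-11. Its interaction was 1.13 with an adjusted p of 0.000222. In MlxKO the log2 fold change of -0.38 missed the threshold with 0.0577, and without WT library 3 it was -0.55 and was called.

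Immortalized Myh11 measured 1.11, 0.888 and 0.304 CPM in WT, 0.532, 0.651 and 0.306 CPM in MlxKO, 46.1, 64.6 and 63.5 CPM in MycKO and 9.55, 8.31 and 6.07 CPM in DKO libraries. WT and MlxKO libraries lay at or under about 1 CPM on 5 to 19 and 6 to 13 reads, while all MycKO libraries lay above all DKO libraries and these above all others. Mean CPM was 75.6-fold higher in MycKO than in WT and 10.4-fold higher in DKO, and the log2 fold changes of 5.07 and 2.35 had adjusted p-values of 1.50e-08 and 3.40e-05. As the filter let Myh11 in through its MycKO and DKO libraries, its differences from WT and MlxKO, and the interaction that contains both groups, had a difference built in, and their p-values are given as a description. Without WT library 4 these values were 4.87 and 2.15. Myh11 was 7.27-fold lower in DKO than in MycKO, a log2 fold change of -2.72 with an adjusted p of 2.70e-06, and 16.1-fold higher in DKO than in MlxKO, at 2.57 with 1.02e-05. Its interaction was -2.50 with an adjusted p of 8.27e-05, and the MlxKO value of -0.22 with 0.450 was not called at this depth, and was -0.42 without WT library 4, -0.08 without WT library 2 and -0.12 without MlxKO library 7, also not called.

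Myl9 (ENSMUSG00000067818, chr2:156617084-156623579 on the plus strand of GRCm39) encodes a regulatory light chain that holds the site at which myosin is switched on. Primary Myl9 measured 340.1, 342 and 258 CPM in WT, 270.4, 229.6 and 274 CPM in MlxKO, 576, 404 and 602 CPM in MycKO and 671, 646 and 683 CPM in DKO libraries. WT library 3 lay among the MlxKO libraries and MycKO library 10 lay well below the other MycKO libraries, yet all MycKO libraries lay above WT and all DKO libraries above MycKO. The log2 fold change of Myl9 was 0.74 in MycKO with an adjusted p of 0.000215 and 1.10 in DKO with 3.17e-06. In MlxKO it was -0.27 with 0.211, and -0.41 and called without WT library 3. Myl9 in DKO exceeded MlxKO by 1.37 with 3.05e-07. Its excess over MycKO of 0.36 had 0.0580 and passed without MycKO library 9, at 0.43, or MycKO library 11, at 0.47, and without MycKO library 10 it was 0.18 and not called. An interaction of 0.63 with an adjusted p of 0.0290 was no longer called without WT library 1 or 2, at 0.57 and 0.56, MlxKO library 6, at 0.55, or DKO library 13 or 15, at 0.63 and 0.61.

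Immortalized Myl9 measured 74.6, 117 and 92.2 CPM in WT, 168, 195 and 186 CPM in MlxKO, 635, 575 and 572 CPM in MycKO and 392, 301 and 338 CPM in DKO libraries. No groups overlapped, and the order from the lowest was WT, MlxKO, DKO and MycKO. Myl9 rose 6.28-fold in mean CPM in MycKO, at a log2 fold change of 2.66 with an adjusted p of 1.24e-07, by 1.87 in DKO with 1.17e-05 and by 0.97 in MlxKO with 0.000844. For Myl9 without WT library 4 these values were 2.65, 1.86 and 0.96. In DKO cells Myl9 was lower than in MycKO, at -0.79, with 0.00190 and higher than in MlxKO by 0.90 with 0.00115, and the interaction was -1.76 with 7.12e-05.

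Cnn1 (ENSMUSG00000001349, chr9:22010512-22020926 on the plus strand of GRCm39) encodes calponin, which binds actin and damps the myosin ATPase. Primary Cnn1 measured 215, 205 and 176 CPM in WT, 149, 138 and 157 CPM in MlxKO, 285, 250.6 and 306 CPM in MycKO and 424, 430.0 and 418 CPM in DKO libraries. No groups overlapped, and the order from the lowest was MlxKO, WT, MycKO and DKO. Cnn1 rose by 0.49 in MycKO and 1.09 in DKO on the log2 scale, with adjusted p-values of 0.000124 and 2.26e-08, and its value in MlxKO was -0.42 with 0.00412, also called. DKO exceeded MycKO by 0.60 with 4.64e-05 and MlxKO by 1.51 with 6.18e-10. The interaction of 1.02 with an adjusted p of 1.28e-05 was called without each library in turn, as were the 5 other differences of primary Cnn1.

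Immortalized Cnn1 measured 83.3, 99.5 and 133 CPM in WT, 182, 183 and 179.7 CPM in MlxKO, 391, 371 and 384 CPM in MycKO and 242, 221 and 229 CPM in DKO libraries. Here too no groups overlapped, but WT lay lowest, then MlxKO, DKO and MycKO. Against WT the log2 fold change of Cnn1 was 1.88 in MycKO with an adjusted p of 9.67e-07, 1.15 in DKO with 0.000238 and 0.81 in MlxKO with 0.00124, and 2.06, 1.33 and 0.99 without WT library 4. DKO was lower than MycKO, at -0.73 with 0.00175, and its excess over MlxKO of 0.34 had 0.0800. The interaction was -1.54 with an adjusted p of 8.87e-05.

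Tagln (ENSMUSG00000032085, chr9:45840909-45847404 on the minus strand of GRCm39) encodes transgelin, or SM22, an actin-binding protein that is an early marker of smooth muscle. Primary Tagln measured 1819, 1751 and 1325 CPM in WT, 1135, 984 and 1130.0 CPM in MlxKO, 2987, 2103 and 3049 CPM in MycKO and 2598, 2635 and 2638 CPM in DKO libraries. All MlxKO libraries lay below WT, and MycKO and DKO libraries above WT, with MycKO library 10 below the DKO range and the other MycKO libraries above it. Tagln rose by 0.73 in MycKO with an adjusted p of 0.000241 and by 0.70 in DKO with 0.000279. The MlxKO value of -0.58 with 0.00903 was called lower, but was not called without WT library 1, at -0.50, WT library 2, at -0.52, or MlxKO library 6, at -0.51. Tagln in DKO exceeded MlxKO by 1.28 with 6.05e-07. Between DKO and MycKO the difference was -0.03 with 0.913, 0.05 without MycKO library 9, 0.07 without MycKO library 11, and -0.20 and called without both WT library 3 and MycKO library 10. An interaction of 0.55 missed the threshold with 0.0553 and was called without WT library 3, at 0.69, MycKO library 9, at 0.63, or MycKO library 11, at 0.65.

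Immortalized Tagln measured 233, 311 and 726 CPM in WT, 662, 763 and 737 CPM in MlxKO, 2725, 2128 and 2249 CPM in MycKO and 1128, 972 and 1049 CPM in DKO libraries. MycKO libraries lay highest and DKO libraries next, and WT library 4 lay within the MlxKO range while the other WT libraries lay far below it. Tagln rose by 2.65 in MycKO with an adjusted p of 3.39e-05, by 1.48 in DKO with 0.00671 and by 0.94 in MlxKO with 0.0294. For Tagln without WT library 4 these values were 3.12, 1.96 and 1.41. The MlxKO call was lost without WT library 2 or 3, at 0.60 and 0.80, or MlxKO library 6 or 7, at 0.90 and 0.92, and also without a filter and with edgeR, at 0.79. With only the groups compared, Tagln was called neither in MlxKO nor in DKO, at unchanged values. DKO cells held less Tagln than MycKO cells, at -1.17 with 0.0125 and no overlap, and their excess over MlxKO of 0.54 had 0.200. The interaction was -2.11 with an adjusted p of 0.00204.

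Cald1 (ENSMUSG00000029761, chr6:34575435-34752408 on the plus strand of GRCm39) encodes caldesmon, an actin- and myosin-binding protein made in smooth muscle and nonmuscle forms that gene-level counts do not separate. Primary Cald1 measured 1784, 1865 and 1843 CPM in WT, 1675, 1687 and 1619.9 CPM in MlxKO, 2836, 2992 and 2804 CPM in MycKO and 2613, 2655 and 2571 CPM in DKO libraries. No groups overlapped, and MycKO lay above DKO. Cald1 rose by 0.65 in MycKO and by 0.51 in DKO on the log2 scale, with adjusted p-values of 2.68e-07 and 2.29e-06, and was -0.14 in MlxKO with 0.149. Cald1 in DKO exceeded MlxKO by 0.65 with 1.68e-07, and its difference from MycKO of -0.14 had 0.107. The interaction was 0.00 with 0.993, and its sign changed without WT library 2 (-0.01), WT library 3 (0.00), MlxKO library 7 (-0.02), MycKO library 9 (-0.01) or 11 (-0.02) or DKO library 14 (-0.01) and under library-total scaling (-0.01).

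Immortalized Cald1 measured 1438, 1164 and 2381 CPM in WT, 1195, 1078 and 1070.0 CPM in MlxKO, 1972, 2367 and 2376 CPM in MycKO and 2122, 2299 and 2201 CPM in DKO libraries. WT library 4 was the highest of all 12 libraries, and the WT group overlapped with each of the others. None of the comparisons with WT was called, with log2 fold changes of 0.49 in MycKO (adjusted p 0.0772), 0.48 in DKO (adjusted p 0.138) and -0.51 in MlxKO (adjusted p 0.0779). Cald1 without WT library 4 was called higher in MycKO and DKO, at 0.78 and 0.77, and was -0.22 and not called in MlxKO. Without WT library 3 the values were 0.27 in MycKO and 0.25 in DKO, not called, and -0.73 in MlxKO, called lower. DKO exceeded MlxKO by 0.99 with 0.00518, without overlap. Against MycKO the value was -0.02 with 0.966, and it was 0.03 without MycKO library 10, 0.03 without MycKO library 11 and 0.01 without DKO library 13. The interaction of 0.49 had 0.198, and was 0.72 and called without WT library 3 and 0.20 and not called without WT library 4.

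Tpm1 (ENSMUSG00000032366, chr9:66929870-66956953 on the minus strand of GRCm39) and Tpm2 (ENSMUSG00000028464, chr4:43514697-43524949 on the minus strand of GRCm39) encode tropomyosins, coiled coils that lie along the actin filament in many spliced forms, which gene-level counts do not separate. Primary Tpm1 measured 1836, 1852 and 1596 CPM in WT, 1509, 1397 and 1511 CPM in MlxKO, 2213, 1846 and 2138 CPM in MycKO and 2441, 2462 and 2458 CPM in DKO libraries. MycKO library 10 lay within the WT range, DKO libraries lay above all others and MlxKO libraries below all others. Tpm1 was higher in MycKO by 0.23 with an adjusted p of 0.0256 and in DKO by 0.48 with 7.97e-05. The MycKO call was lost without WT library 3, at 0.16, or MycKO library 9 or 11, at 0.18 and 0.20, and, at an unchanged value, without a filter or with only the groups compared. In MlxKO the value of -0.26 had an adjusted p of 0.05003, just over the threshold, and was -0.33 and called without WT library 3. DKO exceeded MlxKO by 0.74 with 9.86e-07 and the interaction was 0.51 with 0.00432. DKO also exceeded MycKO by 0.25 with 0.0276, a call that was lost without MycKO library 10, at 0.17, or DKO library 13, 14 or 15, at 0.26, 0.25 and 0.25.

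Immortalized Tpm1 measured 728, 788 and 1412 CPM in WT, 1481, 1545 and 1578 CPM in MlxKO, 2144, 2019 and 2119.8 CPM in MycKO and 1839.6, 1675 and 1699 CPM in DKO libraries. No groups overlapped, but WT library 4 lay close under the MlxKO libraries. Its log2 fold change was 1.17 in MycKO with an adjusted p of 0.000699, 0.90 in DKO with 0.0113 and 0.72 in MlxKO with 0.0165, and 1.46, 1.20 and 1.02 without WT library 4. The MlxKO call of Tpm1 was lost without WT library 2 or 3, at 0.54 and 0.60, or MlxKO library 6 or 7, at 0.71 and 0.70, and with only the groups compared both the MlxKO and the DKO call were lost at unchanged values. DKO differed from MycKO by -0.27 with 0.352 and from MlxKO by 0.18 with 0.540, neither called. The interaction was -0.99 with an adjusted p of 0.0147.

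Primary Tpm2 measured 414, 408 and 312 CPM in WT, 325, 270.0 and 324 CPM in MlxKO, 698, 472 and 662 CPM in MycKO and 707, 743 and 732 CPM in DKO libraries. WT library 3 lay within the MlxKO range and MycKO library 10 far below the other MycKO libraries, and all DKO libraries lay above all MycKO libraries. Tpm2 was higher in MycKO by 0.68 with an adjusted p of 0.000418 and in DKO by 0.95 with 1.29e-05, and its value in MlxKO was -0.29 with 0.167, or -0.43 and called without WT library 3. Tpm2 in DKO exceeded MlxKO by 1.25 with 7.47e-07, and its excess over MycKO of 0.27 had 0.149 and was 0.10 without MycKO library 10. The interaction of 0.57 passed with an adjusted p of 0.0476, a call that held without WT library 3, MycKO library 9 or MycKO library 11 only. It was lost without WT library 1 or 2 (0.50 and 0.51), MlxKO library 5, 6 or 7 (0.61, 0.48 and 0.61), MycKO library 10 (0.39) or DKO library 13, 14 or 15 (0.59, 0.55 and 0.56).

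Immortalized Tpm2 measured 239.6, 297 and 201 CPM in WT, 274, 267 and 269.8 CPM in MlxKO, 517, 487 and 519 CPM in MycKO and 629, 564 and 559 CPM in DKO libraries. MlxKO libraries lay within the WT range, and DKO libraries lay above MycKO, which Tpm2 alone among the members did in this table. Tpm2 rose by 1.06 in MycKO with an adjusted p of 4.80e-05 and by 1.26 in DKO with 6.66e-05, or 0.93 and 1.13 without WT library 4, and was 0.15 in MlxKO with 0.355, or 0.02 without WT library 4 and 0.30 without WT library 3, not called. DKO exceeded MlxKO by 1.11 with 9.25e-05. Its excess over MycKO of 0.20 had 0.270, so the difference did not pass although the libraries did not overlap. The interaction of 0.05 had 0.853 and changed sign without WT library 3 (-0.10) or DKO library 13 (-0.01) and under library-total scaling (-0.13).

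Vcl (ENSMUSG00000021823, chr14:20979449-21083758 on the plus strand of GRCm39) encodes vinculin, which ties actin filaments to focal adhesions in most adherent cells. Primary Vcl measured 855, 877 and 929 CPM in WT, 830.0, 812 and 736 CPM in MlxKO, 981, 1011 and 957 CPM in MycKO and 1236, 1286 and 1252 CPM in DKO libraries. No groups overlapped, with the order MlxKO, WT, MycKO and DKO. Vcl was higher in DKO than in WT by 0.50 with an adjusted p of 4.28e-06, than in MycKO by 0.36 with 0.000430 and than in MlxKO by 0.67 with 2.10e-07. Its interaction was 0.52 with 0.000514. The values of 0.15 in MycKO and -0.16 in MlxKO missed the threshold with 0.0614 and 0.107, and the first was 0.18 and called without WT library 3, and also called with edgeR, with DESeq2 and without WT library 3 and MycKO library 10.

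Immortalized Vcl measured 765, 802 and 871 CPM in WT, 686, 652 and 684 CPM in MlxKO, 1177, 1539 and 1480.1 CPM in MycKO and 1331, 1269 and 1199.9 CPM in DKO libraries. MycKO and DKO libraries overlapped with each other and lay above WT, and MlxKO libraries lay below WT. Vcl rose by 0.77 in MycKO with an adjusted p of 0.000419 and by 0.64 in DKO with 0.00524, or 0.83 and 0.69 without WT library 4. In MlxKO it was -0.27 with 0.109, DKO exceeded MlxKO by 0.91 with 0.000300, and DKO differed from MycKO by -0.13 with 0.457. The interaction of 0.13 had 0.561 and was -0.04 under library-total scaling.

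**Figure D3:**
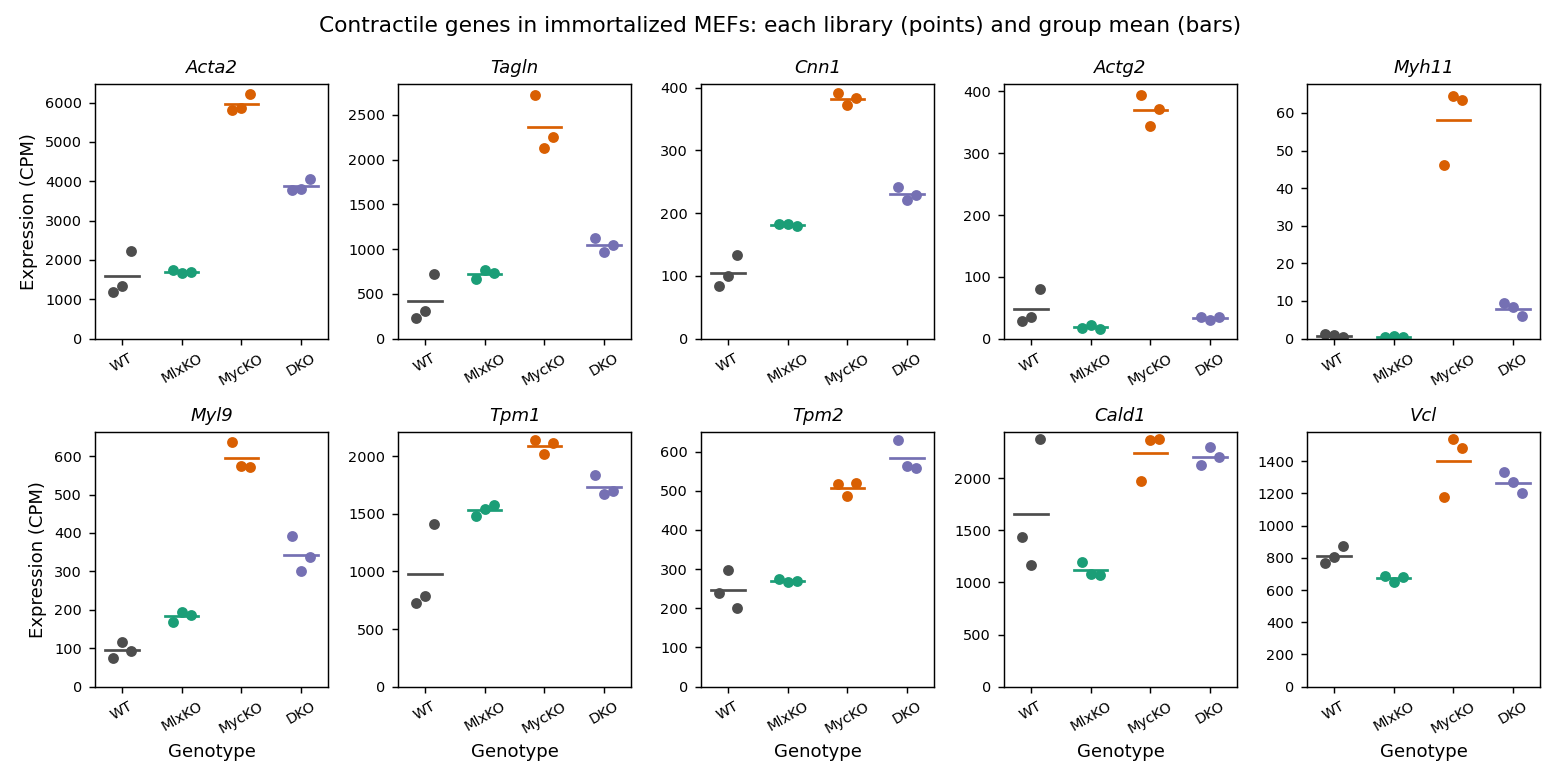
CPM of each of the 10 members in the 12 immortalized libraries on a linear axis from 0, with points for libraries and bars for group means. MycKO libraries lie above all DKO libraries for 7 members, with Actg2 at 344 to 394 CPM in MycKO and 30.4 to 35.2 CPM in DKO.

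Other genes of the pathway were taken from lists chosen with earlier results of these data known. Each was counted by calls against WT, beside the background shares given for the members and an all-gene median log2 fold change between -0.01 and 0.01. Named genes are, in each comparison with WT, up to 3 called genes of a list whose libraries did not overlap with WT and whose log2 fold change, given in parentheses, was among the largest in size. Fewer than 3 WT libraries reached 1 CPM for Pdlim3 in primary cells and for Kcnmb1, Ppp1r14a, Mylk, Ankrd1 and Myh14 in immortalized cells, so these genes passed the filter through other groups and entered the counts, and in part the named genes, with a difference built in. Of the list of other smooth muscle genes in primary cells, 13 of 19 tested were higher and 3 lower in MycKO, 0 higher and 4 lower in MlxKO, and 15 higher and 1 lower in DKO, with medians of 0.74, -0.18 and 0.79. The named genes were Des (-1.38), Mcam (1.12) and Itga8 (1.11) in MycKO, Des (-1.13) and Itga8 (-0.31) in MlxKO and Mylk (2.35), Itga8 (1.35) and Lmod1 (1.27) in DKO. Immortalized cells had fewer that passed the filter, and 15 of 17 tested were higher and 1 lower in MycKO, 5 higher and 3 lower in MlxKO, and 12 higher and 0 lower in DKO, with medians of 1.40, 0.21 and 0.80, with Itga8 (4.04), Mcam (2.21) and Lmod1 (1.97) in MycKO, Nexn (-1.16), Fhl1 (-0.93) and Mylk (0.91) in MlxKO and Kcnmb1 (2.17), Itga8 (2.11) and Mcam (1.59) in DKO as named genes. Between DKO and MycKO, calls on this list were 10 higher and 1 lower in DKO in primary and 3 higher and 8 lower in immortalized cells.

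Mylk encodes the kinase that phosphorylates the regulatory light chain. Primary Mylk measured 48.4, 46.9 and 54.8 CPM in WT, 52.0, 48.7 and 47.0 CPM in MlxKO, 99.5, 105 and 104 CPM in MycKO and 257, 266 and 252 CPM in DKO libraries. DKO libraries lay above MycKO, and MycKO above WT and MlxKO, which overlapped. Its log2 fold change was 1.03 in MycKO with an adjusted p of 9.79e-09, 2.35 in DKO with 5.02e-13 and 1.32 in DKO against MycKO with 1.13e-09. Immortalized Mylk was scarce, with 2.05, 2.50 and 0.609 CPM in WT, 4.16, 4.15 and 3.32 CPM in MlxKO, 5.52, 7.41 and 6.70 CPM in MycKO and 2.27, 1.92 and 2.04 CPM in DKO libraries. MycKO libraries lay highest and DKO libraries within the WT range, with log2 fold changes of 1.54 in MycKO (adjusted p 0.000378), 0.91 in MlxKO (adjusted p 0.0129) and 0.25 in DKO (adjusted p 0.485).

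SRF and the coactivators that work on CArG boxes or with them formed another list. Of these, 6 of 11 tested were higher and 0 lower in MycKO, 0 higher and 1 lower in MlxKO, and 6 higher and 3 lower in DKO, with medians of 0.18, -0.10 and 0.24, all in primary cells, and in immortalized cells 5 of 10 tested were higher and 0 lower in MycKO, 3 higher and 1 lower in MlxKO, and 2 higher and 0 lower in DKO, with medians of 0.36, 0.12 and 0.26. The named genes of the primary table were Fhl2 (0.69), Tead3 (0.53) and Wwtr1 (0.48) in MycKO, Srf (-0.35) in MlxKO and Tead4 (-0.78), Fhl2 (0.57) and Mrtfa (0.51) in DKO. Those of the immortalized table were Fhl2 (1.71), Tead3 (1.24) and Tead2 (1.18) in MycKO, Tead2 (0.93), Tead3 (0.86) and Fhl2 (0.54) in MlxKO and Fhl2 (0.92) and Tead3 (0.77) in DKO. Primary Srf itself measured 102, 98.4 and 97.6 CPM in WT, 79.4, 78.2 and 76.3 CPM in MlxKO, 113, 105 and 119 CPM in MycKO and 100.4, 102 and 109 CPM in DKO libraries. MlxKO libraries lay lowest, MycKO libraries above WT, and DKO libraries overlapped with both WT and MycKO. Srf was higher in MycKO by 0.17 with an adjusted p of 0.0344, lower in MlxKO at -0.35 with 0.00217, and not called in DKO at 0.06 with 0.442. Immortalized Srf measured 65.9, 72.7 and 106 CPM in WT, 84.7, 103 and 86.4 CPM in MlxKO, 128, 159 and 159.8 CPM in MycKO and 114, 99.2 and 108 CPM in DKO libraries, with MycKO libraries above all others. It was called in MycKO at 0.89 with 0.000970 but not in MlxKO or DKO, at 0.19 and 0.42 with 0.379 and 0.0939.

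Of the myocardin family, primary Mrtfa measured 80.1, 83.6 and 81.5 CPM in WT, 82.8, 76.9 and 74.1 CPM in MlxKO, 86.8, 85.7 and 90.3 CPM in MycKO and 111, 124 and 116 CPM in DKO libraries. DKO libraries lay above all others, and the log2 fold change of 0.51 had an adjusted p of 5.93e-06, against 0.10 with 0.230 in MycKO and -0.07 with 0.558 in MlxKO. In immortalized cells Mrtfa was not called against WT, at 0.18, 0.42 and 0.47 in MycKO, MlxKO and DKO with adjusted p-values of 0.370, 0.0534 and 0.0531. Mrtfb was called in no comparison with WT, with log2 fold changes in that order of 0.18, 0.08 and 0.24 in primary and -0.31, -0.34 and -0.09 in immortalized cells. Primary Myocd measured 1.98, 2.06 and 1.81 CPM in WT, 0.853, 1.44 and 1.34 CPM in MlxKO, 1.28, 1.83 and 1.44 CPM in MycKO and 1.43, 1.11 and 1.04 CPM in DKO libraries, on 16 to 38 reads. WT libraries lay above DKO libraries, with a log2 fold change of -0.43 and an adjusted p of 0.0348, while MycKO and MlxKO were not called, at -0.23 and -0.43 with 0.260 and 0.111.

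Nonmuscle actins and their binding partners formed a list on which 7 of 15 tested were higher and 0 lower in MycKO, 0 higher and 7 lower in MlxKO, and 7 higher and 2 lower in DKO, with medians of 0.15, -0.28 and 0.20, in primary cells. The immortalized table gave more calls in MycKO, and 14 of 15 tested were higher and 0 lower in MycKO, 5 higher and 1 lower in MlxKO, and 5 higher and 0 lower in DKO, with medians of 0.98, 0.07 and 0.47. Named genes were Cnn2 (0.41), Flna (0.40) and Actn1 (0.38) in primary MycKO, Tagln2 (-0.54), Tmsb4x (-0.38) and Actb (-0.34) in MlxKO and Cnn2 (0.57), Flna (0.53) and Cnn3 (0.39) in DKO, and Tmsb10 (2.19), Tmsb4x (1.97) and Cnn2 (1.97) in immortalized MycKO, Tmsb10 (1.06), Pfn1 (0.74) and Cfl1 (0.67) in MlxKO and Cnn2 (1.23), Pfn1 (0.96) and Actn1 (0.69) in DKO. Primary Actb measured 4709, 4591 and 4531 CPM in WT, 3542, 3649 and 3746 CPM in MlxKO, 4167, 4099.7 and 4293 CPM in MycKO and 4316, 4387 and 4384 CPM in DKO libraries. Its WT libraries lay above all others and its MlxKO libraries below all others, with log2 fold changes of -0.34 in MlxKO (adjusted p 0.00281), -0.14 in MycKO (adjusted p 0.0866) and -0.08 in DKO (adjusted p 0.312). In immortalized cells Actb was higher in MycKO by 0.66 with 0.0143, without overlap, and not called in MlxKO at -0.07 or DKO at 0.46. Actg1 was not called against WT in primary cells, at 0.03 in MycKO, -0.24 in MlxKO and 0.07 in DKO. In immortalized cells it was lower in MlxKO at -0.57 with 0.0314, without overlap, and not called in MycKO at 0.09 or DKO at 0.13.

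Among the other muscle actins, Actc1 stayed under 1 CPM in every library, and Acta1, the skeletal form, measured 52.6, 53.5 and 46.2 CPM in WT, 27.7, 29.4 and 33.5 CPM in MlxKO, 46.5, 51.1 and 48.7 CPM in MycKO and 44.5, 46.4 and 42.2 CPM in DKO libraries in primary cells. MlxKO libraries lay below all others, and Acta1 was called lower in MlxKO at -0.73 with an adjusted p of 4.60e-05, and not called in MycKO at -0.05 or DKO at -0.19. Immortalized Acta1 measured 22.1, 20.5 and 13.1 CPM in WT, 9.63, 10.4 and 9.29 CPM in MlxKO, 191, 226 and 231 CPM in MycKO and 90.8, 85.5 and 88.7 CPM in DKO libraries. No groups overlapped, and the order from the lowest was MlxKO, WT, DKO and MycKO. Acta1 had log2 fold changes of 3.50 in MycKO with 2.71e-08, 2.22 in DKO with 5.70e-06 and -0.83 in MlxKO with 0.00242.

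On the list of nonmuscle myosin and its control, 5 of 12 tested were higher and 1 lower in MycKO, 0 higher and 3 lower in MlxKO, and 4 higher and 0 lower in DKO, with medians of 0.18, -0.22 and 0.21 in primary cells, and 6 of 13 tested were higher and 4 lower in MycKO, 3 higher and 6 lower in MlxKO, and 5 higher and 0 lower in DKO, with medians of 0.49, -0.36 and 0.26 in immortalized cells. Named genes were Rhob (-0.54), Myh9 (0.45) and Ppp1r12a (0.23) in primary MycKO, Myh9 (-0.39), Myh10 (-0.38) and Rhob (-0.24) in MlxKO and Myh10 (0.73), Myl6 (0.62) and Ppp1r12a (0.39) in DKO, and Myl6 (1.99), Rhoc (1.83) and Myh9 (1.43) in immortalized MycKO, Ppp1cb (-1.14), Rhoc (0.96) and Myl6 (0.96) in MlxKO and Myl6 (1.40), Myl12b (1.08) and Rhoc (0.89) in DKO. Primary Myh9, the nonmuscle myosin heavy chain with which Myh11 shares 0.4% of its 50-base stretches, measured 2136, 2247 and 1759.7 CPM in WT, 1685, 1543 and 1443 CPM in MlxKO, 2934, 2456 and 2996 CPM in MycKO and 2386, 2497 and 2453 CPM in DKO libraries. MycKO and DKO libraries lay above WT and MlxKO libraries below, with log2 fold changes of 0.45, 0.26 and -0.39 and adjusted p-values of 0.00108, 0.0294 and 0.0159. In immortalized cells Myh9 was higher in MycKO by 1.43 with 0.000191 and in DKO by 0.64 with 0.0499, both without overlap, and its value of 0.55 in MlxKO had 0.0526.

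Vinculin's partners at focal adhesions gave 9 genes higher of 16 tested and 0 lower in primary MycKO, 1 and 4 in MlxKO, and 10 and 0 in DKO, with medians of 0.24, -0.13 and 0.29. In immortalized cells 11 of 16 tested were higher and 2 lower in MycKO, 2 higher and 6 lower in MlxKO, and 4 higher and 0 lower in DKO, with medians of 0.62, -0.16 and 0.30. Named genes were Itga11 (1.38), Lims2 (1.08) and Itgb1 (0.58) in primary MycKO, Zyx (-0.54), Tln1 (-0.37) and Lims2 (-0.35) in MlxKO and Itga11 (1.47), Lims2 (1.30) and Itga5 (0.68) in DKO, and Lims2 (2.86), Vasp (1.68) and Itga5 (1.34) in immortalized MycKO, Itga11 (-1.67), Vasp (0.97) and Itgav (-0.88) in MlxKO and Lims2 (2.61), Zyx (0.84) and Vasp (0.82) in DKO. Targets of YAP and TEAD and early targets of SRF shared a list on which 5 of 10 tested were higher and 0 lower in MycKO, 0 higher and 7 lower in MlxKO, and 5 higher and 1 lower in DKO, with medians of 0.26, -0.41 and 0.19 in primary cells, and 5 of 10 tested were higher and 3 lower in MycKO, 0 higher and 2 lower in MlxKO, and 5 higher and 0 lower in DKO, with medians of 0.32, -0.07 and 0.56 in immortalized cells. Named here were Ccn2 (0.59), Lats2 (0.54) and Axl (0.30) in primary MycKO, Ankrd1 (-0.93), Fosb (-0.76) and Ccn1 (-0.47) in MlxKO and Fos (-0.99), Ccn2 (0.91) and Ankrd1 (0.53) in DKO, and Ankrd1 (4.80), Fos (-3.74) and Fosb (-3.50) in immortalized MycKO, Ccn2 (-0.99) and Ccn1 (-0.64) in MlxKO and Ccn1 (1.09), Lats2 (0.97) and Axl (0.76) in DKO.

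TGF-beta is the secreted factor best known for inducing contractile genes in fibroblasts. Of its signalling list, 8 of 15 tested were higher and 1 lower in MycKO, 2 higher and 5 lower in MlxKO, and 8 higher and 0 lower in DKO, with medians of 0.26, -0.11 and 0.16 in primary cells, and 4 of 15 tested were higher and 5 lower in MycKO, 1 higher and 5 lower in MlxKO, and 2 higher and 2 lower in DKO, with medians of -0.16, -0.20 and 0.00 in immortalized cells. Named genes were Ltbp2 (0.58), Tgfb1 (0.42) and Tgfb3 (0.40) in primary MycKO, Smad7 (-0.42) and Tgfb2 (0.40) in MlxKO and Ltbp2 (1.09) and Tgfb3 (0.53) in DKO, and Ltbp2 (-1.71), Smad6 (-1.34) and Tgfb3 (1.34) in immortalized MycKO, Tgfb2 (-1.03), Tgfbr1 (-0.78) and Skil (-0.71) in MlxKO and Tgfbr3 (-1.36), Smad7 (0.76) and Smad6 (0.66) in DKO. Primary Tgfb1 measured 105, 97.0 and 91.6 CPM in WT, 83.1, 68.0 and 72.6 CPM in MlxKO, 140.4, 115 and 140.2 CPM in MycKO and 104, 107 and 101 CPM in DKO libraries. MycKO libraries lay above and MlxKO libraries below WT, and DKO libraries overlapped with WT, with log2 fold changes of 0.42, -0.39 and 0.09 and adjusted p-values of 0.000883, 0.00961 and 0.396. Immortalized Tgfb1 measured 51.0, 57.4 and 41.7 CPM in WT, 60.2, 68.5 and 73.6 CPM in MlxKO, 117, 130.4 and 121 CPM in MycKO and 53.6, 43.6 and 48.5 CPM in DKO libraries. It was called higher in MycKO by 1.29 with 1.25e-05 and in MlxKO by 0.43 with 0.0219, both without overlap, but not in DKO, at -0.04 with 0.871.

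Marker genes of other cell types moved with the genotypes in primary cells, and their part in the results was not tested. All 8 macrophage markers were lower in MycKO and in DKO than in WT, with medians of -2.57 and -1.59, and none was called in MlxKO. Their summed level was 274, 418 and 524 CPM in WT, 301, 339 and 371 in MlxKO, 47.7, 52.6 and 70.0 in MycKO and 94.3, 105 and 219 in DKO libraries, sorted by size, with Lyz2 as the most abundant gene. In immortalized cells the same sum lay between 1.48 and 5.80 CPM, with Cd68 the most abundant and with Adgre1 and Tyrobp at 0. Pericyte markers, of which Cspg4 was the most abundant and Higd1b was at 0, summed to 289.7, 291 and 307 CPM in primary WT, 197, 227 and 235 in MlxKO, 413, 433 and 452 in MycKO and 272, 275 and 276 in DKO libraries. These sums are mostly Cspg4. In primary cells 5 pericyte markers were tested, of which Kcnj8 reached 1 CPM in only 2 WT libraries. Calls were 3 higher and 0 lower in MycKO, 2 higher and 1 lower in MlxKO, and 4 higher and 1 lower in DKO. Medians were 0.50, 0.08 and 1.01. Their immortalized sums were 172, 221 and 263, 157, 187 and 209, 206, 276 and 314 and 241, 304 and 418 CPM in the same order of groups.

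Smooth muscle markers, 5 of whose 10 genes are members, summed to 5941 to 6575 CPM in primary WT, 4790.3 to 5389 in MlxKO, 9544 to 10775 in MycKO and 10372 to 10738 in DKO libraries, with Acta2 as the most abundant. The immortalized groups gave 1633 to 3299, 2716 to 2792, 9036 to 9567 and 5250.1 to 5604 CPM. Skeletal muscle markers, most abundant in Des, summed to 124 to 139 CPM in primary WT, 65.6 to 71.4 in MlxKO, 81.8 to 83.8 in MycKO and 121 to 131 in DKO, and in immortalized cells, where Acta1 made up most of the sum, to 13.4 to 23.0, 10.1 to 11.8, 191 to 232 and 86.5 to 92.01 CPM. Cardiac markers summed to 6.60 to 7.06, 4.64 to 6.47, 9.55 to 13.2 and 8.69 to 9.56 CPM in primary WT, MlxKO, MycKO and DKO and to 1.66 to 1.93, 2.42 to 3.21, 5.44 to 6.44 and 4.07 to 4.25 CPM in the immortalized groups, with Tnnt2 most abundant in the first and Nppb in the second and no marker at 0 in all libraries. Endothelial markers, most abundant in Kdr, summed to 13.9 to 15.5 CPM in primary WT and to 3.52 to 4.61, 5.32 to 8.83 and 5.11 to 5.92 in MlxKO, MycKO and DKO, and to 3.10 to 5.05, 5.66 to 7.11, 14.4 to 19.1 and 7.64 to 9.002 CPM in the immortalized groups, with Emcn and Cldn5 at 0 there. Epithelial markers, led by Krt18, summed to 16.5 to 19.9 CPM in primary WT and to 3.23 to 4.83, 2.00 to 2.24 and 1.95 to 2.76 in the knockouts. In immortalized cells, led by Cdh1 and with Krt14 at 0, the sums were 0.365 to 5.91 CPM in WT, 1.31 to 1.60 in MlxKO, 0.102 to 0.275 in MycKO and 1.02 to 1.36 in DKO.

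The genes most like the members were ranked by Pearson's r of log2(CPM + 1) with the mean z-score of the 10 members over the 12 libraries of a table, members left out and without a test. In primary cells they included Lmod1 (r = 0.996), Cxcl14 (0.996), Lima1 (0.993), Mprip (0.992) and Lbh (0.992). Lmod1, also on the smooth muscle lists, measured 74.2, 72.1 and 67.0 CPM in WT, 58.7, 56.2 and 57.8 CPM in MlxKO, 140.4, 111 and 141 CPM in MycKO and 168, 177 and 172 CPM in DKO libraries. Cxcl14 measured 50.1, 50.8 and 48.3 CPM in WT, 35.3, 33.4 and 35.5 CPM in MlxKO, 129.8, 94.8 and 121 CPM in MycKO and 148, 139.9 and 146 CPM in DKO libraries. Both were low in MlxKO libraries and dipped in MycKO library 10, as several members did. The other primary genes ranged over the 12 libraries from 215 to 446 CPM for Lima1, from 453 to 628 CPM for Mprip and from 309 to 737 CPM for Lbh.

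In immortalized cells the most alike genes included Mmp17 (r = 0.991), F3 (0.983), Grin3a (0.982) and Pde3a (0.981). Mmp17 measured 0.996, 1.44 and 1.77 CPM in WT, 2.23, 1.85 and 1.89 CPM in MlxKO, 15.2, 17.7 and 18.7 CPM in MycKO and 7.68, 7.13 and 7.95 CPM in DKO libraries. Its MycKO libraries lay highest and its DKO libraries next, without overlap with WT or MlxKO. The others ranged from 57.1 to 321 CPM for F3, from 4.44 to 48.1 CPM for Grin3a and from 0.111 to 9.99 CPM for Pde3a, which stood near or under the floor of 3 reads in WT libraries 2 and 3. None of the genes given for one table was among those given for the other.

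The members share little sequence. Of 50-base stretches of their transcripts in GENCODE vM39, Acta2 shared 0.256% with other genes, Myh11 shared 0.4%, and the other 8 members shared 0, and none was shared among Acta2, Actg2, Acta1 and Actc1, so that 50 bases are enough to tell these actins apart. Genes on the opposite strand overlap Acta2, Tagln, Cnn1, Myl9, Tpm1, Cald1 and Vcl, and a gene model on the same strand, Gm66862, overlaps Cald1. The paper names a directional kit for library preparation, but it does not state whether the strand of a read was used in counting. Whether reads of these neighbours entered the members' counts is therefore not known. The members lie on chromosomes 2, 4, 6, 9, 14, 16 and 19, with 3 on chromosome 9 (Cnn1, Tagln and Tpm1) and a pair on chromosome 6 (Cald1 and Actg2).

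Promoter sequences came from a supplied table of RefSeq promoters (GRCm38.p6) that holds 7 of the 10 members, Cald1 with 2 starts, so the promoters of Tagln, Actg2 and Myh11 were not analysed here. The 250 bases before each start were searched on both strands for the CArG box, for CACGTG (the E-box letters bound by Myc and Mlx complexes), for CATTCC (TEAD) and for TATAAA. A CArG box was found for Myl9 and Vcl and in 1.47% of 32851 promoters, CACGTG for no member and in 6.02%, CATTCC for Acta2, Tpm1, Cald1 and Vcl and in 12.6%, and TATAAA for Cald1 and in 12.4%. A match describes letters and is not a site in use, and no match says only that the letters are absent from this window. Both CArG boxes are shown, in capitals with 10 bases on either side, because SRF binds this sequence. By exact match to GRCm39, the stretch of Myl9 is chr2:156617213-156617242 on the plus strand, from -171 to -142 relative to the RefSeq start, where GENCODE places the first exon of Myl9 and an exon of the antisense gene 5730471H19Rik. That of Vcl is chr14:20979229-20979258 on the plus strand, from -237 to -208, where GENCODE places no feature.
Myl9: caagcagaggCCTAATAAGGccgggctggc
Vcl: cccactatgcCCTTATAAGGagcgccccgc

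Binding of Myc, Mlx or SRF, contraction, protein levels and cell counts were not analysed here.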

How the data were processed

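Signal was taken as CPM as the authors deposited it, and their scaling between libraries is not named. Whole reads were recovered from each library's values for 100% of entries, within a tolerance of 0.01, and 0 columns were left unused. The 10 genes were taken by name from each table, and members and lists were chosen with earlier results of these data known. Tests used limma 3.58.1 (limma-trend) in R 4.3.3 on log2(CPM + 1), with all 4 groups of a table in one model, genes kept if 3 or more of the 12 libraries reached 1 CPM, and Benjamini-Hochberg adjustment over the table.

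Alternatives were a pseudocount of 0.1, no filter, a mean of at least 5 CPM, median-ratio and library-total scaling, only the groups compared, edgeR 4.0.16 and DESeq2 1.42.0 on recovered reads, each library left out in turn, and, chosen after seeing the data, the primary table without WT library 3 and MycKO library 10. The code was tested on simulated data. Tables and figures were made with Python 3.11.15, pandas 2.3.3, numpy 2.4.6 and matplotlib 3.10.9. Gene models were GENCODE vM39. Raw reads and protein sequences were not used here.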

Additional observations from a re-analysis of the deposited data

Results flagged for a closer look

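Some values ran against a simple sum of the effects of Myc and Mlx excision, for which the interaction would be near 0. In primary cells it was called positive for Cnn1 (1.02), Myh11 (1.13), Myl9 (0.63), Tpm1 (0.51), Tpm2 (0.57) and Vcl (0.52), which means that DKO cells lay higher than the sum of the single knockouts. In immortalized cells it was called negative for Acta2 (-0.78), Tagln (-2.11), Cnn1 (-1.54), Actg2 (-2.22), Myh11 (-2.50), Myl9 (-1.76) and Tpm1 (-0.99), so DKO cells lay lower than that sum. Myh11 entered that test only through its MycKO and DKO libraries, so a difference was built into its value. The immortalized Acta2 call was lost without any 1 library except WT library 4. In primary cells the Tpm2 call held without WT library 3, MycKO library 9 or MycKO library 11 only. The primary Myl9 call was lost without WT library 1 or 2, MlxKO library 6, or DKO library 13 or 15.

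Opposite signs in primary and immortalized cells were picked out where the libraries of the groups did not overlap in either table, and the difference between the tables was not tested. In MlxKO against WT these were -0.42 and 0.81 for Cnn1 and -0.26 and 0.72 for Tpm1. In DKO against MycKO they were 0.60 and -0.73 for Cnn1, 0.74 and -2.72 for Myh11, 0.36 and -0.79 for Myl9 (the first 0.18 without MycKO library 10), and 0.25 and -0.27 for Tpm1. Signs were also opposite, with overlap in at least 1 of the tables, in other cases. MlxKO against WT gave Tagln (-0.58 and 0.94, called in both), Myl9 (-0.27 and 0.97), Tpm2 (-0.29 and 0.15) and Acta2 (-0.19 and 0.16). DKO against WT gave Actg2 (1.19 and -0.35). DKO against MycKO gave Actg2 (0.10 and -3.43), Vcl (0.36 and -0.13) and Acta2 (0.00 and -0.62). Some of these signs rested on 1 library. Immortalized Actg2 in DKO against WT was 0.10 without WT library 4, and immortalized Acta2 in MlxKO was -0.02 without WT library 2. Primary Acta2 in DKO against MycKO was -0.02 without MycKO library 9 and -0.02 without DKO library 14.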

How the results depend on the processing

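Each group is 3 libraries that the labels do not tie to separate cultures or pools. The scaling is not named and 1 immortalized WT library stands apart from its group, so that the calls depend on few libraries. No paired analysis was possible because the library numbers are not tied to replicate numbers, and a model with replicate blocks was not run. Most member values kept sign and call under the alternatives, and the cause of the shifts that follow was not tested.

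Members called in primary MlxKO against WT numbered 2, and 1 without a filter, 5 with edgeR, 7 with DESeq2, 7 without WT library 3 and MycKO library 10, and 1 to 6 with each library left out. All genes called there numbered 1164, and 2838 without that pair and 627 to 1466 with each library left out. Members in immortalized MlxKO against WT numbered 5, and 3 with only the groups compared and 3 to 6 with each library left out, where all genes went from 5014 to between 2884 and 6033. Members in immortalized DKO against WT numbered 8, and 6 with only the groups compared, where Tagln and Tpm1 were not called. All genes in immortalized DKO against WT numbered 2434, and 969 with only the groups compared and 1115 to 3248 with each library left out. In immortalized DKO against MlxKO they numbered 3879, and 5958 with only the groups compared and 2352 to 3521 with each library left out. Members with a primary interaction numbered 6, and 4 to 8 with each library left out.

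Calls of single members were lost under some alternatives. In primary cells these were Tpm1 in MycKO against WT (no filter, library-total scaling, only the groups compared), Tagln in MlxKO against WT and Tpm1 in DKO against MycKO (no filter), and the interactions of Myl9 (no filter) and Tpm2 (no filter, a mean of at least 5 CPM, library-total scaling). In immortalized cells they were Tagln in MlxKO against WT (no filter, only the groups compared, edgeR), Tpm1 in MlxKO and Tagln and Tpm1 in DKO against WT (only the groups compared), Acta2 in DKO against MycKO and its interaction (no filter), and Actg2 in DKO against MlxKO (no filter, library-total scaling). Calls were gained with edgeR or DESeq2 for Vcl in primary MycKO, for Acta2, Myh11, Tpm1, Cald1 and Vcl in primary MlxKO against WT, for Myl9 and Cald1 in primary DKO against MycKO, for the primary interactions of Tagln, Acta2 and Actg2 and for Cald1 in immortalized MlxKO. They were gained with a pseudocount of 0.1, a mean of at least 5 CPM or median-ratio scaling for Tpm1 in primary MlxKO, with median-ratio scaling for the primary interaction of Tagln, and with only the groups compared for Tagln and Cnn1 in immortalized DKO against MlxKO. Without WT library 3 and MycKO library 10 they were gained for Vcl in MycKO, for Acta2, Myh11, Myl9, Tpm1 and Tpm2 in MlxKO, for Tagln (lower) and Myl9 in DKO against MycKO and for the interaction of Tagln.

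Signs were reversed under library-total scaling for uncalled interactions of Cald1 in primary cells (-0.00712) and of Tpm2 (-0.13) and Vcl (-0.0433) in immortalized cells. With each library left out, signs changed for values that were not called with all libraries, of Acta2 (-0.0207 to 0.0218) and Tagln (-0.20 to 0.0658) in primary DKO against MycKO, Cald1 in the primary interaction (-0.0165 to 0.0304), and, in immortalized cells, Acta2 in MlxKO against WT (-0.0226 to 0.44), Actg2 in DKO against WT (-0.65 to 0.10), Cald1 in DKO against MycKO (-0.10 to 0.0300) and Tpm2 in the interaction (-0.10 to 0.18).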
